A study of Mus musculus with 8 samples.

Results

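The genes described here carry out the attachment of ISG15 to other proteins and its removal. They are Isg15, Usp18, Uba7, Ube2l6 and Herc6, 5 genes of the 23503 to which the transcript entries of the tables were summed. They were chosen by symbol, and each is represented by 1 RefSeq transcript. The libraries were made from the polyadenylated RNA of mesenchymal stem cells that were derived from mouse bone marrow, lack p53 and were used below passage 20. There were 4 clonal lines, clones 2, 4, 8 and 12, and each contributed a cFos culture, transduced with a retrovirus carrying cFos cDNA, and a Luc culture, transduced with a retrovirus carrying luciferase as the control. Both arms are p53 knockout and both were transduced, so no wild-type and no untransduced cells are compared. Each clone and virus has 1 library, which gives 4 cFos and 4 Luc libraries; "Luc 8" below is the Luc library of clone 8. The promoter that drives the viral cDNA and the species of the cFos cDNA are not in the labels.

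ISG15 is a ubiquitin-like protein made of a pair of ubiquitin-like folds. It is joined to lysines of target proteins through a cascade of its own: UBA7 (UBE1L) is the activating enzyme (E1), UBE2L6 (UBCH8) the conjugating enzyme (E2), and HERC6 the main ligase (E3) in mice, where it does the work that HERC5 does in human cells. USP18 (UBP43) is the protease that takes ISG15 off again, and separately it binds the receptor chain IFNAR2 and damps type I interferon signalling. All of these genes are known targets of type I interferon, whose signal reaches them through the transcription factor complex ISGF3.

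Levels are FPKM, fragments scaled to transcript length and to the mapped fragments of the library, so they can be set side by side between genes. Aligned sequence, estimated as coverage times transcript length, came to 6.93 to 9.14 gigabases per library. Fos, the transduced gene, was at 589, 675, 1019 and 505 FPKM in cFos 2, 4, 8 and 12. In Luc 2, 4, 8 and 12 it was at 76.2, 41.1, 302 and 43.5 FPKM. Viral and endogenous Fos transcript are not told apart in these values. Of 12 stromal markers 9 were at 1 FPKM or more in every library of each arm, with Col1a1 at 1180 to 1865 FPKM in cFos and 831 to 2401 FPKM in Luc. The summed level of the 12 was 7615 to 11313 FPKM in cFos and 4045 to 7205 FPKM in Luc, higher in every cFos library. Vim, the marker with the highest value in cFos, was at 3353 to 6577 FPKM there and 977 to 1837 FPKM in Luc. Pdgfrb was likewise higher in cFos, at 118 to 185 FPKM against 71.0 to 109 FPKM in Luc, whereas the arms of Col1a1 overlapped. The part of the difference in the sum in the results below was not tested. Of 16 blood and endothelial markers in the tables, 15 stayed below 1 FPKM in every cFos library and 14 in every Luc library; their summed level was 2.15 to 2.71 FPKM in cFos and 2.57 to 3.18 FPKM in Luc. Cd14, found on monocytes, was at 1.35 to 2.30 FPKM in cFos and 0.902 to 2.69 FPKM in Luc, and Lyz2, the lysozyme of myeloid cells, at 0 to 0.165 FPKM in cFos and 0.0542 to 1.45 FPKM in Luc; their part in the results was not tested. Ptprc, the pan-leukocyte marker CD45, did not exceed 0.0115 FPKM in cFos or 0.0718 FPKM in Luc, and Cdh5, the endothelial cadherin, was listed at 0 throughout. The RNA is from bulk cultures, so fewer expressing cells and less RNA per cell cannot be told apart in any value below.

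In the cFos cultures the modifier Isg15 and its protease Usp18 stood at 6.20% or less of their level in the Luc culture of the same clone. The E1 Uba7 and the E3 Herc6 stood at 9.23% to 55.1%, and the E2 Ube2l6 at 39.5% to 101%. Of the 5 genes, 4 fell (Usp18, Isg15, Uba7 and Herc6), none rose and Ube2l6 did not pass, in a limma test over 11162 genes with Benjamini-Hochberg adjusted p under 0.05. Genes were tested if they reached 1 FPKM in 4 or more of the 8 libraries, and Usp18 did so through its 4 Luc libraries. Among all tested genes 5.55% were called, 2.62% lower and 2.92% higher. The same 4 members had every cFos library below every Luc library, which was so for 7.8% of tested genes. The median log2 fold change of the members was -1.75, beside -0.0597 over all tested genes.

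**Figure D1:**
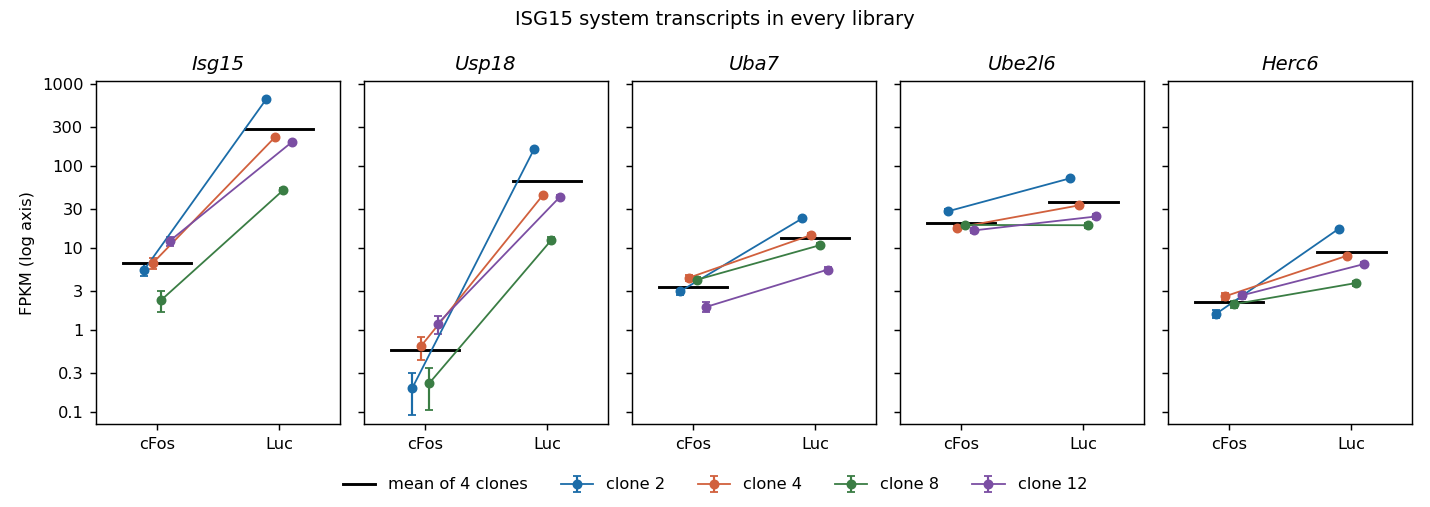
FPKM (log axis) of the 5 genes in the cFos and Luc libraries; points are libraries, lines join the arms of a clone, whiskers are the deposited confidence limits and black bars the mean of 4 clones. Isg15 lies between 2.32 and 12.2 FPKM in cFos and between 51.2 and 660 FPKM in Luc, while the arms of Ube2l6 overlap.

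Isg15, the modifier itself (chromosome 4, 155573533 to 155574927, mm9), was at 5.42, 6.54, 2.32 and 12.2 FPKM in cFos 2, 4, 8 and 12, against 660, 225, 51.2 and 197 FPKM in Luc 2, 4, 8 and 12. The highest cFos library was 4.18-fold below the lowest Luc library, so the arms did not overlap. Isg15 averaged 6.63 ± 4.15 FPKM in cFos and 284 ± 263 FPKM in Luc (SD, n = 4 clones each). limma gave a log2 fold change of -4.99 with SE 0.72 and an adjusted p of 0.00555. Only 3 of the 11162 tested genes had a lower log2 fold change. Set against the Luc library of its own clone, Isg15 was 122-fold lower in cFos 2, 34.5-fold lower in cFos 4, 22.1-fold lower in cFos 8 and 16.1-fold lower in cFos 12. Ranked by FPKM among all genes of a library, it stood at place 7917, 7408, 9862 and 5213 in cFos 2, 4, 8 and 12 and at place 111, 295, 1329 and 328 in Luc 2, 4, 8 and 12.

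The sequence before the Isg15 start is shown because it holds matches to the element that ISGF3 is known to bind, and that of Uba7 because it is the other window of the set with a match. Both are the 250 bases before the RefSeq start of transcription in GRCm38.p6, written 5′ to 3′ on the gene's strand, with matches in capitals; the Isg15 window is chr4:156200819-156201068 (minus strand) and the Uba7 window chr9:107975317-107975566 (plus strand). The letters searched were GAAA, any 2 bases and GAAA again, the core of the interferon-stimulated response element (ISRE), its shorter part AANNGAAA, which every such core contains, and TGANTCA, the AP-1 element that Fos and Jun dimers bind, each on both strands.
Isg15: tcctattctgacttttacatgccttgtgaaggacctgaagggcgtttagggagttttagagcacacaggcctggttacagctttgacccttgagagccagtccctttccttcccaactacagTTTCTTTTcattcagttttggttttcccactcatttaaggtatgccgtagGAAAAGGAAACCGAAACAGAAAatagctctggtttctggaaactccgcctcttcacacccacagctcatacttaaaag
Uba7: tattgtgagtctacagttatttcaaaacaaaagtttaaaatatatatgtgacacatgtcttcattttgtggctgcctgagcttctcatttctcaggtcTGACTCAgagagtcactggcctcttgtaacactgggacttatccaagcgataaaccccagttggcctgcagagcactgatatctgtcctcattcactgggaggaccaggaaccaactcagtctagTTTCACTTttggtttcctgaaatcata
In Isg15 the run of capitals nearer to the start holds 3 overlapping ISRE cores, GAAAAGGAAA, GAAACCGAAA and GAAACAGAAA, whose first bases lie at -78, -72 and -66 from the start; the capitals further upstream are a match to the shorter part on the opposite strand, at -128. In Uba7 the capitals mark TGACTCA at -152 and the shorter part on the opposite strand at -27. Over the 300 bases from 250 before to 50 after the start, 3.44% of 32851 RefSeq promoter windows hold the ISRE core, 23.9% the shorter part and 7.81% the AP-1 letters. The windows of Ube2l6 and Herc6 hold none of these letters. The 4 windows found were those of Isg15, Uba7, Ube2l6 and Herc6. No window was available for Usp18, so its promoter was not searched for these letters. A match is a description of letters, and no binding was measured in these cultures.

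Usp18, the ISG15 protease (chromosome 6, 121195924 to 121220935), was at 0.194, 0.629, 0.224 and 1.19 FPKM in cFos 2, 4, 8 and 12, against 164, 44.4, 12.6 and 42.3 FPKM in Luc 2, 4, 8 and 12. Here the lowest Luc library was 10.5-fold above the highest cFos library, the widest gap of the 5 genes. The cFos values rest on thin coverage, a mean depth per base of 1.64, 6.002, 2.17 and 9.24 in cFos 2, 4, 8 and 12, although the lower confidence limit of each lay above 0. Its means were 0.560 ± 0.467 FPKM in cFos and 65.9 ± 67.2 FPKM in Luc (SD, n = 4 clones each), and the log2 fold change was -5.51 (limma SE 0.66, adjusted p = 0.00284). Because the pseudocount of 0.5 is close to the cFos values, this fold change moves with it, and was -6.34 at a pseudocount of 0.1 and -4.92 at 1. As plain ratios of FPKM, Usp18 was 846-fold lower in cFos 2 than in Luc 2, 70.5-fold lower in cFos 4 than in Luc 4, 56.2-fold lower in cFos 8 than in Luc 8 and 35.4-fold lower in cFos 12 than in Luc 12. Of the cFos libraries, cFos 12 alone reached 1 FPKM, so Usp18 entered the test through its 4 Luc libraries; the other 4 members were above 1 FPKM in every library.

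Uba7, the activating enzyme that starts the cascade (chromosome 9, 107877898 to 107886387), was at 2.97, 4.34, 4.12 and 1.91 FPKM in cFos 2, 4, 8 and 12, against 23.1, 14.4, 10.8 and 5.47 FPKM in Luc 2, 4, 8 and 12. Clone 12 was the lowest clone in both arms, and Luc 12 stood only 1.26-fold above the highest cFos library. The means were 3.33 ± 1.12 FPKM in cFos and 13.5 ± 7.41 FPKM in Luc (SD, n = 4 clones each). The log2 fold change was -1.75 (SE 0.40, limma adjusted p = 0.0391). In its own clone Uba7 was 7.78-fold lower in cFos 2, 3.32-fold lower in cFos 4, 2.63-fold lower in cFos 8 and 2.87-fold lower in cFos 12. The call was narrow and held without Luc 12 (limma adjusted p = 0.0100), but it ended without any other library. The limma adjusted p was 0.114, 0.0733, 0.0714 and 0.0875 when cFos 2, 4, 8 or 12 was left out, and 0.0800, 0.0912 and 0.0636 when Luc 2, 4 or 8 was.

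Herc6, the ligase (chromosome 6, 57530986 to 57615130), was the lowest of the 5 in Luc 2, 4 and 8. It was at 1.58, 2.57, 2.06 and 2.65 FPKM in cFos 2, 4, 8 and 12, against 17.2, 8.07, 3.73 and 6.39 FPKM in Luc 2, 4, 8 and 12. The cFos libraries were close to each other and lay below all Luc libraries, Luc 8 by the smallest margin. Herc6 averaged 2.22 ± 0.496 FPKM in cFos and 8.84 ± 5.83 FPKM in Luc (SD, n = 4 clones each), and limma gave -1.60 on the log2 scale (SE 0.38, adjusted p = 0.0456). Clone by clone it was lower in cFos 10.8-fold (clone 2), 3.14-fold (clone 4), 1.81-fold (clone 8) and 2.41-fold (clone 12). As with Uba7, the call was narrow: it held without Luc 8 (limma adjusted p = 0.0152) and ended otherwise. Leaving out cFos 2, 4, 8 or 12 gave limma adjusted p of 0.137, 0.0948, 0.105 and 0.0756, and leaving out Luc 2, 4 or 12 gave 0.0546, 0.0975 and 0.0674.

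Ube2l6, the conjugating enzyme (chromosome 2, 84638985 to 84650160), was at 28.3, 17.8, 19.2 and 16.5 FPKM in cFos 2, 4, 8 and 12, against 71.4, 33.3, 19.0 and 24.3 FPKM in Luc 2, 4, 8 and 12. The arms overlapped: cFos 2 was above Luc 8 and Luc 12. In clone 8 the deposited confidence limits of the libraries, 17.9 to 20.5 FPKM in cFos and 17.7 to 20.3 FPKM in Luc, nearly coincided, while in the other clones Ube2l6 was 2.53-fold, 1.87-fold and 1.48-fold lower in cFos 2, 4 and 12. The means were 20.4 ± 5.35 FPKM in cFos and 37.0 ± 23.7 FPKM in Luc (SD, n = 4 clones each), and the log2 difference was -0.69 with a 95% interval of -1.53 to 0.15 (limma adjusted p = 0.347). That interval includes 0 and also falls of more than 2-fold, so a reduction of Ube2l6 is neither shown nor shown to be missing.

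**Figure D2:**
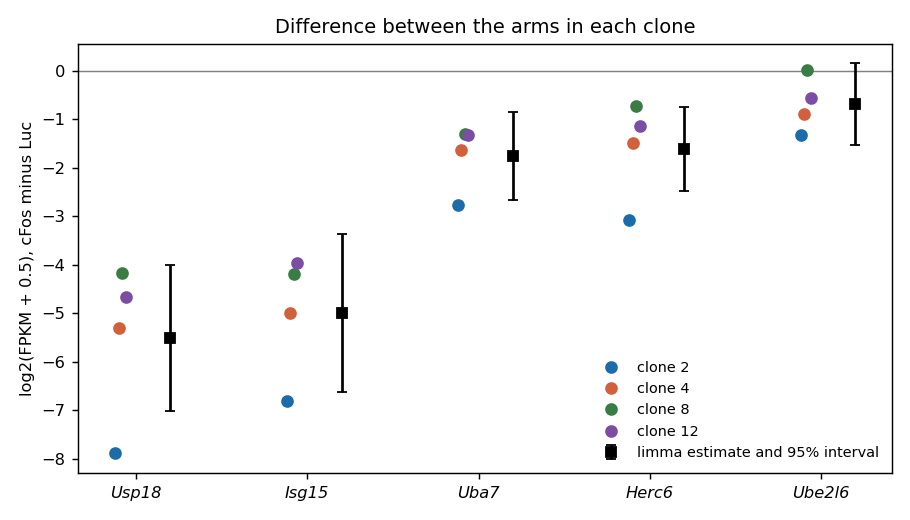
Difference in log2(FPKM + 0.5), cFos minus Luc, for each clone (coloured points) and the limma estimate with its 95% interval (black squares). Clone 2 has the lowest value for all 5 genes, and clone 8 has 0.01 for Ube2l6.

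Permutation tests, exact and two-sided, over the 70 ways to assign 4 of the 8 libraries to cFos gave p = 0.0286 for Isg15, Usp18, Uba7 and Herc6, the smallest value this design allows, and p = 0.200 for Ube2l6. Exchanging the arms only within clones gave exact p = 0.125 for those 4 genes, again the smallest possible, and 0.250 for Ube2l6. The libraries of a clone come from the same line. With the clone as a block in limma the same 4 genes were called and Ube2l6 was not (adjusted p = 0.107). Over all tested genes the block raised the share called lower to 4.28%.

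The size of the fall differed from clone to clone in the same way for most members. Over the 5 genes clone 2 had a median log2 difference of -3.08, clone 4 of -1.62, clone 8 of -1.29 and clone 12 of -1.31. Clone 2 had the largest fall of each gene, and Luc 2 the highest level of each. Across the Luc libraries Isg15, Usp18, Ube2l6 and Herc6 shared an order, clone 2 above 4 above 12 above 8; the neighbours Luc 4 and Luc 12 were not apart for Usp18, whose confidence limits were 42.7 to 46.0 and 40.7 to 43.96 FPKM. Uba7 departed from that order, with Luc 12 at the bottom. The span between the highest and the lowest library was 5.28-fold in cFos and 12.9-fold in Luc for Isg15, 6.15-fold and 13.1-fold for Usp18, 2.28-fold and 4.22-fold for Uba7, 1.72-fold and 3.76-fold for Ube2l6, and 1.67-fold and 4.60-fold for Herc6. With 1 library per clone and virus, differences between clones could not be tested.

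Luc 8, lowest in Isg15, Usp18, Ube2l6 and Herc6 among the Luc libraries, also had the highest Fos of that arm, 302 FPKM. Leaving out the lowest library of the Luc arm must move a fall further from 0. Without Luc 8 the log2 fold changes were -5.64 for Isg15 and -6.10 for Usp18. Luc 2, highest in all 5 members, had the next highest Fos of the Luc arm, 76.2 FPKM. It was also the library with most interferon transcript. Of 20 type I and type III interferon genes listed, chosen after their values were seen, the summed level was 0.0810 to 0.211 FPKM in cFos and 0.164 to 1.74 FPKM in Luc. In Luc 2 Ifna4 was at 0.960 FPKM and Ifnb1 at 0.644 FPKM. Ifna4 was listed at 0 in the other 7 libraries, and Ifnb1 likewise except for 0.0436 FPKM in Luc 12. Without Luc 2 the log2 fold changes were -4.41 for Isg15 and -4.89 for Usp18, and both kept their call (limma adjusted p = 0.0105 and 0.00309). The part of Fos or interferon transcripts in the levels of these libraries was not tested.

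The members also stood in a different order of abundance in the arms. In each cFos library Ube2l6 was the most abundant of the 5 transcripts, and in each Luc library it was Isg15. Isg15 held 14.1%, 20.5%, 8.32% and 35.5% of the summed FPKM of the 5 genes in cFos 2, 4, 8 and 12, against 70.5%, 69.2%, 52.6% and 71.5% in Luc 2, 4, 8 and 12. Usp18 was the least abundant in every cFos library, whereas in Luc 2, 4 and 12 it stood next to Isg15 at the top.

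For each 100 FPKM of Isg15 there were 521, 272, 827 and 134 FPKM of Ube2l6 in cFos 2, 4, 8 and 12, against 10.8, 14.8, 37.1 and 12.3 FPKM in Luc 2, 4, 8 and 12. All cFos libraries had more Ube2l6 than Isg15 and all Luc libraries less. Herc6 came to 29.2, 39.3, 88.8 and 21.6 FPKM per 100 of Isg15 in cFos 2, 4, 8 and 12, against 2.60, 3.58, 7.29 and 3.24 FPKM in Luc 2, 4, 8 and 12, without overlap. On the log2 scale, with 0.5 added to both values, the ratio to Isg15 was higher in cFos by 4.30 for Ube2l6 and by 3.39 for Herc6 (exact two-sided permutation p = 0.0286 each, and 0.0571 when adjusted over the 4 ratios examined). Uba7 stood at 15.6 to 177 FPKM per 100 of Isg15 in cFos and 2.77 to 21.1 FPKM in Luc, so its arms overlapped, although the ratio was higher in cFos in all 4 clones (3.24 on the log2 scale, exact permutation p = 0.0571, adjusted p = 0.0762). None of the 4 ratios passed after adjustment.

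For the protease the ratio lay the other way before any pseudocount. In cFos there were 3.59, 9.62, 9.65 and 9.76 FPKM of Usp18 per 100 of Isg15 in clones 2, 4, 8 and 12, all below the Luc values. In Luc the corresponding values were 24.9, 19.7, 24.5 and 21.4 FPKM in clones 2, 4, 8 and 12, a narrow range although each gene spanned more than 12-fold across those libraries. With 0.5 added to both genes the log2 ratio was lower in cFos by a mean difference of -0.52 (exact two-sided permutation p = 0.143, adjusted p = 0.143 over the 4 ratios). Without a pseudocount, an alternative added after the data were seen, the difference was -1.58 (exact permutation p = 0.0286 before adjustment). Whether Usp18 fell more than Isg15 therefore rests on how its low cFos values are treated.

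**Figure D3:**
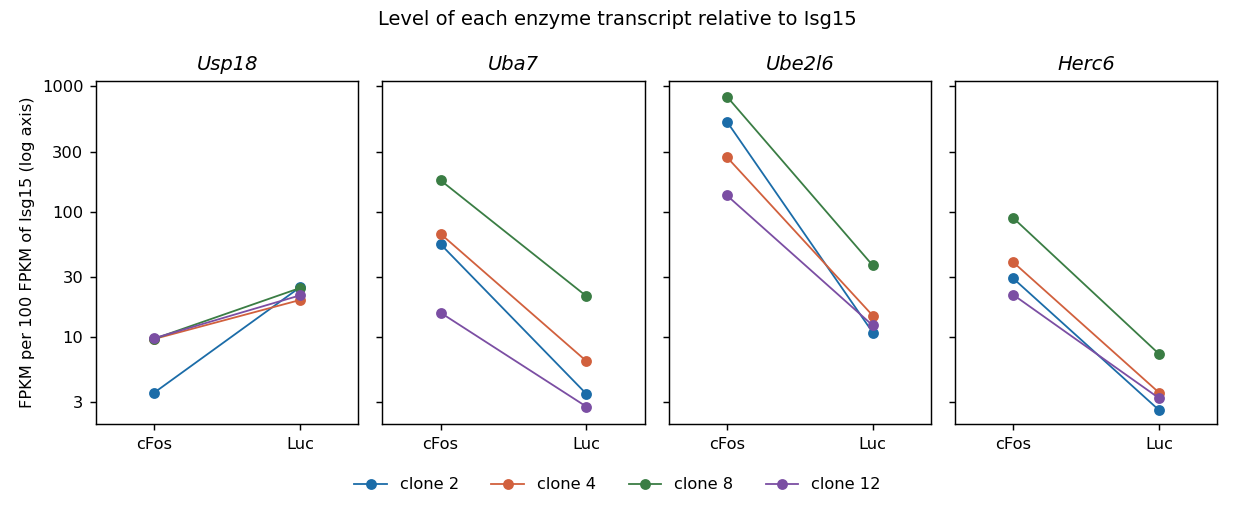
FPKM of Usp18, Uba7, Ube2l6 and Herc6 per 100 FPKM of Isg15 (log axis), with lines joining the cFos and Luc library of each clone. Ube2l6 lies between 134 and 827 in cFos and between 10.8 and 37.1 in Luc, and Usp18 is the enzyme whose ratio is lower in cFos.

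Ubiquitin, SUMO, NEDD8 and the autophagy modifiers use enzymes of the same families. These lists are described by counts alone. With 5.55% of all tested genes called, a count of 0 or 1 in the lists of 9 to 41 tested genes is near the background. It is not a result about them. The HERC list has 4 tested genes, and its 1 call describes 1 gene and not the list. The share of all tested genes with an unadjusted p under 0.05 is not given here, so the unadjusted counts have no background. Of 9 other E1 genes tested, none rose or fell at limma adjusted p under 0.05, also with the clone as a block, and 1 had an unadjusted p under 0.05. Uba3, part of the NEDD8-activating enzyme, had the smallest adjusted p of these, at 77.1 ± 11.3 FPKM in cFos and 59.8 ± 8.68 FPKM in Luc (SD, n = 4 each, limma adjusted p = 0.214). The list's median log2 fold change was 0.03, with a range of -0.34 to 0.36, while Uba7 was at -1.75.

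Among 31 other ubiquitin-conjugating enzymes tested, none was called by limma, with or without the block, and 4 had an unadjusted p under 0.05. Their log2 fold changes ran from -0.31 to 0.47, and Ube2l6, at -0.69, lay below all of them without being called. Of 18 tested ubiquitin and ubiquitin-like modifier genes, none was called in either limma fit and 4 had an unadjusted p under 0.05. Urm1, a modifier that also acts in tRNA thiolation, came nearest, at 13.3 ± 2.30 FPKM in cFos and 18.4 ± 1.91 FPKM in Luc (SD, n = 4 each, limma adjusted p = 0.120).

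Of 41 other ubiquitin-specific proteases tested, 1 fell, 40 did not pass and none rose; their median log2 fold change was -0.10. The fall was that of Usp21, which removes ubiquitin and has also been reported to act on ISG15, at 12.1 ± 0.453 FPKM in cFos and 17.1 ± 1.27 FPKM in Luc (SD, n = 4 each, log2 fold change -0.48, limma adjusted p = 0.0364). That call ended without any 1 of the 8 libraries, with limma adjusted p of 0.0966, 0.103, 0.0805 and 0.0763 on leaving out cFos 2, 4, 8 or 12 and of 0.0872, 0.0524, 0.0592 and 0.0706 on leaving out Luc 2, 4, 8 or 12. It also ended with median-of-ratios scaling (log2 fold change -0.43, limma adjusted p = 0.0604) and with quantile normalization (-0.43, limma adjusted p = 0.0682).

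Among 4 other HERC ligases tested 1 gene was called, in the other direction, where 2.92% of all tested genes were called higher. Herc3, a relative of Herc6 of similar build, rose, at 9.35, 6.63, 12.8 and 11.9 FPKM in cFos 2, 4, 8 and 12, against 4.86, 2.66, 3.61 and 5.999 FPKM in Luc 2, 4, 8 and 12 (log2 fold change 1.17, SE 0.27, limma adjusted p = 0.0400). Of all tested genes 20.9% were lower in cFos in all 4 clones, and the share higher in all 4 is not given here. All 4 clones had more Herc3 in cFos, the direction opposite to that of Herc6. This call held when cFos 4 or Luc 12 was left out (limma adjusted p = 0.0398 and 0.0282) and ended with any other library, at 0.103, 0.104 and 0.0919 for cFos 2, 8 and 12 and at 0.0726, 0.0812 and 0.0762 for Luc 2, 4 and 8. It ended as well with no filter on low values (limma adjusted p = 0.0866). The other 3 tested family members, Herc1, Herc2 and Herc4, did not pass, with log2 differences of -0.18, -0.07 and 0.22; the small difference of Herc2 changed sign without cFos 2 or Luc 2.

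**Figure D4:**
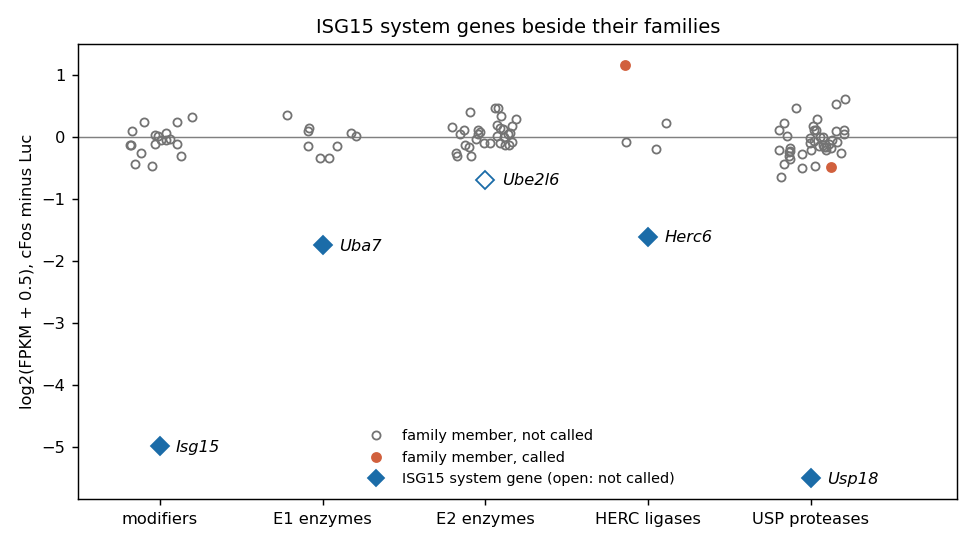
limma estimates of log2(FPKM + 0.5), cFos minus Luc, for the ISG15 system genes (diamonds) beside other tested genes of their families (circles, filled when called; sideways spread is arbitrary). Isg15 at -4.99 and Usp18 at -5.51 lie far below their families, and Herc3 at 1.17 is the called gene above 0.

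A wider list around ISG15 was examined for its other ligases, proteases, targets and the interferon signal. Of its 31 genes 28 were tested, of which 7 fell, 21 did not pass and none rose, where 2.62% of all tested genes were called lower and 2.92% higher; the median log2 fold change was -0.12. With the clone as a block 8 fell, Irf1 being the one added, where 4.28% of all tested genes were called lower. The 3 genes with unadjusted p under 0.05 and a positive difference did not pass the adjustment. Trim25, a ligase for ubiquitin and ISG15 and itself induced by interferon, fell to 12.8, 12.6, 11.1 and 13.6 FPKM in cFos 2, 4, 8 and 12, against 36.1, 34.8, 19.7 and 23.1 FPKM in Luc 2, 4, 8 and 12 (log2 fold change -1.11, SE 0.20, limma adjusted p = 0.0168). Its limma adjusted p was 0.0569 without cFos 2, 0.0539 without cFos 4 and 0.0507 without cFos 8. Usp21, described above, and Ddx58, which encodes the RNA sensor RIG-I, a known ISG15 target, also fell, Ddx58 with 6.61 ± 1.19 FPKM in cFos and 40.8 ± 23.5 FPKM in Luc (SD, n = 4 each, log2 fold change -2.40). The chains of the type I interferon receptor and their kinases did not pass: the log2 differences were -0.28 for Ifnar1 (limma adjusted p = 0.356), -0.11 for Ifnar2 (0.727), -0.14 for Jak1 (0.860) and -0.05 for Tyk2 (0.913).

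Stat2, Irf9 and Irf7, transcription factors of the interferon response, were also among the falls. Stat2 was at 3.55, 4.65, 4.33 and 5.73 FPKM in cFos 2, 4, 8 and 12, against 67.9, 32.0, 11.5 and 21.1 FPKM in Luc 2, 4, 8 and 12 (log2 fold change -2.46, limma adjusted p = 0.0167, and 0.0629 without cFos 2 and 0.0507 without cFos 4). Irf9 averaged 7.24 ± 0.784 FPKM in cFos and 31.6 ± 11.3 FPKM in Luc (SD, n = 4 each, log2 fold change -1.99). Irf7, which drives interferon genes, averaged 1.34 ± 0.292 FPKM in cFos and 47.9 ± 47.5 FPKM in Luc (SD, n = 4 each, log2 fold change -4.23). Without clone 4 in both arms the calls of Irf7 and Ddx58 ended (limma adjusted p = 0.0513 and 0.0566). Stat2 and Irf9, like Isg15, were highest in Luc 2 and lowest in Luc 8 within the Luc arm.

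Genes were ranked by how closely they followed Isg15, as Pearson's r of log2(FPKM + 0.5). Over all 8 libraries, where the difference between the arms dominates, the nearest genes outside the set were Rtp4 (r = 0.994), Helz2 (0.993), Slfn8 (0.991), Xaf1 (0.990), Oasl2 (0.989) and Irf9 (0.988), and Usp18 reached 0.992. Herc6 was next among the members at r = 0.954, followed by Uba7 at 0.808 and Ube2l6 at 0.717. With Isg15 itself counted in the ranking of 11162 genes, Usp18 stood at place 4, Herc6 at 66, Uba7 at 715 and Ube2l6 at 1251. With the arm means removed, the 8 values describe clones within arms. Usp18 then had r = 0.955 and Herc6 0.879, but Ube2l6 had 0.676 and Uba7 0.199. Many other genes came closer to Isg15 by that measure: Usp18 stood at place 39, Herc6 at 253, Ube2l6 at 1378 and Uba7 at 4818. The nearest genes outside the set by that measure were Cacul1 (0.987), Ranbp9 (0.986), Taf9 (0.982), Epha3 (0.981), Yy2 (0.979) and Helz2 (0.977). These are descriptions over 8 libraries chosen from 11162 genes.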

How the data were processed

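The submitters' processing notes name CASAVA 1.8.2, TopHat, Cufflinks and build mm9 of the mouse genome; further versions and settings were not given in the sources used here. The deposited tables hold, per the file headers, FPKM with confidence limits (their level is not stated) and coverage, a signal that gives mean depth per base, in each of 30769 RefSeq entries. The authors recorded no scaling between libraries, and without read counts no counting interval could be given. Library preparation was Illumina TruSeq, per the labels' protocols; whether strand was kept is not stated, and no other entry overlaps any of the 5 loci.

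Symbols came from NCBI RefSeq (30227 entries) and GENCODE M21 (180 entries), leaving 362 under their accession. Entries were summed per symbol, and 3 genes with a failed status were left out. limma 3.58.1 in R 4.3.3 (eBayes with trend) tested log2(FPKM + 0.5) in the 11162 genes that reached 1 FPKM in 4 or more of the 8 libraries, two-sided, without a clone term. Fold changes on that scale understate low genes. Clone numbers pair the libraries, which come from the same lines; deviations from the arm means correlated by 0.174, 0.593, 0.349 and 0.437 within clones 2, 4, 8 and 12. Without a clone term, p-values measure the spread between libraries of an arm, 1 per clone, where clone and culture cannot be told apart. With the block or exchanges within clones, they measure the spread of the cFos minus Luc differences between clones. Exact permutation tests used the log2 values. Loci are in mm9, counted from 1; promoter windows are RefSeq's in GRCm38.p6. The code was tested on simulated data. Python 3.11.15 and matplotlib 3.10.9 drew the plots.

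Named genes are the members, up to 4 genes per list in order of adjusted p, Stat2, Irf9, Irf7 and Fos, and the 6 genes most like Isg15 by each measure; Ifna4, Ifnb1, Ifnar1, Ifnar2, Jak1, Tyk2 and Irf1 were added after their values were seen. Not every gene under that rule is reported here. Members and lists were chosen with earlier results of these data known. Alternatives covered pseudocount, filter, scaling, block, variance model, summation, and leaving out libraries or clones.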

Additional observations from a re-analysis of the deposited data

Results flagged for a closer look

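Among 18 sets of 4 libraries examined (FPKM of each gene and its ratio to Isg15, in each arm), 2 held a library whose gap to its nearest neighbour was a large part of the whole range by Dixon's 95% criterion. Chance gives about 1 such set in 20. For Usp18 per 100 FPKM of Isg15 in cFos, the gap between cFos 2, at 3.59, and the next library, at 9.62, was 0.977 of the range. The Usp18 levels behind these ratios are low and imprecise, such as 0.194 FPKM in cFos 2 (confidence limits 0.0904 to 0.298) and 0.224 FPKM in cFos 8 (0.104 to 0.343). For Ube2l6 per 100 FPKM of Isg15 in Luc, the gap between Luc 8, at 37.1, and the next library, at 14.8, was 0.850 of the range.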

How the results depend on the processing

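Isg15 and Usp18 were called lower under every alternative run except Isg15 without clone 4 (both arms), where its log2 fold change was -4.99 and its limma adjusted p = 0.0592. Leaving out 1 library gave -5.64 to -4.41 for Isg15, -6.10 to -4.89 for Usp18, -2.10 to -1.44 for Uba7, -1.92 to -1.23 for Herc6 and -0.94 to -0.31 for Ube2l6. Uba7 lost its call with no filter (-1.75, limma adjusted p = 0.0906) and without clone 2 (-1.41), clone 4 (-1.79) or clone 8 (-1.90). Herc6 lost it at a pseudocount of 1 (-1.45, limma adjusted p = 0.0504), with no filter (-1.60, 0.101), with quantile normalization (-1.54, 0.0506) and without clone 2 (-1.11), clone 4 (-1.65) or clone 12 (-1.76); at a minimum of 5 FPKM it was not tested. Leaving out a clone leaves 3 libraries per arm. The cause of the changed calls, with or without a clone left out and the ratio below included, was not tested. Ube2l6 stayed uncalled throughout. With the clone as a replicate block the log2 fold changes were unchanged, the calls of the members were the same, and 981 genes were called in place of 619. The number of called genes was 235 to 589 without 1 library, 165 without clone 2 and 155 without clone 4. The log2 ratio of Usp18 to Isg15 (cFos minus Luc) was -1.25 at a pseudocount of 0.1, -0.92 with libraries rescaled to an equal FPKM total, -0.75 to -0.37 without 1 library and -1.58 without a pseudocount; the first, the second, the last and the value without cFos 8 had an exact permutation p of 0.0286 before adjustment. Without 1 library the ratios ran from 2.75 to 3.84 for Uba7, from 3.94 to 4.74 for Ube2l6 and from 3.03 to 3.72 for Herc6. Exchanges within 4 clones, or 3 against 3 libraries, cannot pass the threshold, so those ratios were compared by size alone. Herc2, not called, was 0.000252 without cFos 2, 0.0529 without Luc 2 and 0.12 without clone 2, and ran from -0.179 to 0.0529 without 1 library. Of the other named genes, Usp21 and Herc3 lost their call without any 1 clone. Trim25 lost it without clone 2 or 4, Stat2 without clone 2, 4 or 12, and Irf7 and Ddx58 without clone 4. Fos, called higher in cFos in the main fit (log2 fold change 3.06, limma adjusted p = 0.0184), lost its call without clone 2, 4 or 12. The Fos call also ended with no filter, without cFos 2, 4 or 8, and without Luc 2. Depth limits Usp18 in cFos, where mean depth per base was 1.64 to 9.24. The scalings moved the median of all tested genes by less than 0.1 on the log2 scale.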
